A study of Homo sapiens with 6 samples.

Results

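Transcripts detected in Ki-RAS transformed Caco-2 cells and in neither other line were chosen from 24350 array probes by their detection and signal. A probe was a member when both Ki-RAS arrays scored 0.99 or more for detection, all Ha-RAS and control arrays scored below 0.99, and the mean deposited signal of the Ki-RAS arrays was at least 120 intensity units. The rule found 123 members, 0.505% of the array and 1.39% of the 8863 probes detected on both Ki-RAS arrays. Without the signal minimum it would have found 317, so 194 dimmer probes were left out.

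Caco-2 is a cell line from a human colon adenocarcinoma whose confluent cultures form polarised layers like those of small-intestinal enterocytes. The 3 groups were control Caco-2 cells, Caco-2 cells transformed with Ha-RAS (line CacoH2) and Caco-2 cells transformed with Ki-RAS (line CacoK15), with 2 arrays each and 6 in all. All were cultured without treatment and harvested before confluence. The labels call both RAS lines fast growing, for Ha-RAS on 1 of its 2 samples only, and give no RAS allele and no promoter. With 1 line for each RAS isoform, whatever sets the groups apart sets lines apart. The design text calls the samples biological replicates, but does not say how the cultures were separated. The p-values thus set differences between lines against the spread between these samples within a line, pooled over the 3 groups.

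RAS proteins are small GTPases that switch between a GTP-bound and a GDP-bound state and pass signals from growth factor receptors to the RAF, MEK and ERK kinases and to PI3 kinase. Ki-RAS and Ha-RAS share nearly all of the domain that binds effectors and differ chiefly in the C-terminal stretch that anchors them to membranes. Activating mutations of the Ki-RAS gene are frequent in colorectal cancer, while those of the Ha-RAS gene are rare there.

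Each probe ID is the GI number of a sequence record and a suffix letter. In the manufacturer's scheme S marks a record with a single transcript, A a stretch shared by all isoforms and I a stretch of 1 isoform. The files do not pair these numbers with gene names, and 0 of the 24350 IDs matched the RefSeq table used here. Members are therefore given by ID. The cell type markers, the gene lists and the RAS genes could not be read from these IDs, so the labels were not checked against a transcript.

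Each array detected 9245 to 10192 probes. The lowest signal of any detected probe was 83.5 to 88.8 intensity units, depending on the array. Undetected probes had median signals of 63.5 to 71.1, since background light remains in the deposited values. Signals are in these intensity units unless a log2 scale is named. In RNA from whole cultures, fewer cells with a transcript and less of it per cell cannot be told apart.

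The members spanned a wide range of brightness in Ki-RAS cells. Their mean Ki-RAS signal ran from 120.55 to 1947.3 with a median of 176.2, and 2 members exceeded 1000. A further 8 members lay between 500 and 1000, 42 between 200 and 500, and 71 between 120 and 200. On the Ha-RAS arrays the same probes ran from 53.9 to 88.3 with a median of 71.7, and on the control arrays from 47.3 to 83.6 with a median of 66.4. The dimmest member signal on a Ki-RAS array was 101.7, above the brightest on any other array. Within a member, the lower Ki-RAS array was 1.27 to 23.1 times the highest other array, with a median of 2.12. This separation is what the rule selected and is a description.

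**Figure D1:**
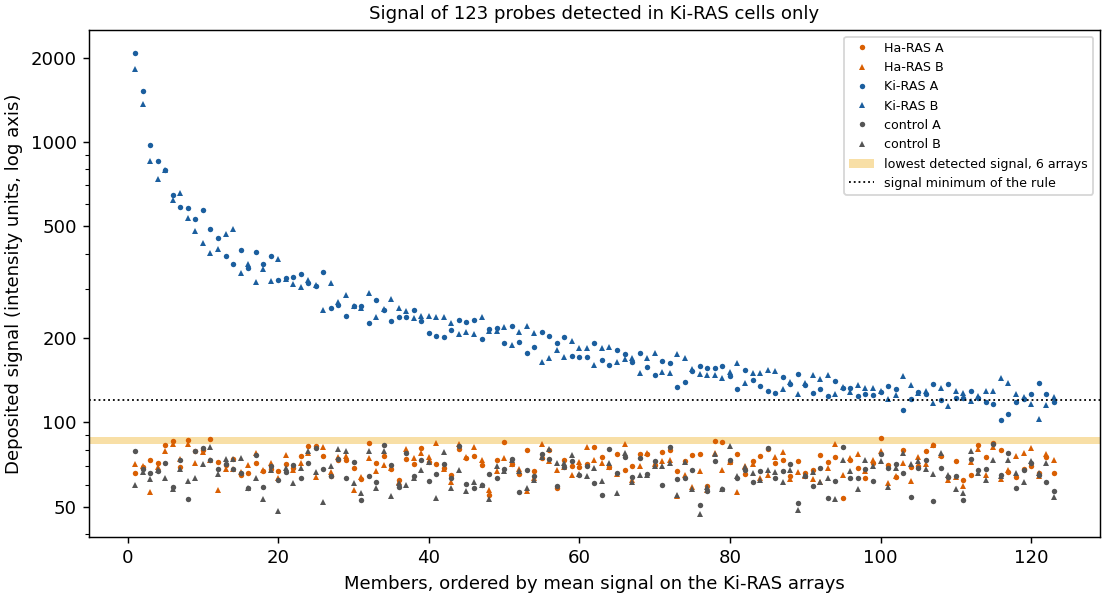
Deposited signal (vertical log axis, intensity units) of the 123 members on each of the 6 arrays, ordered along the horizontal axis by mean Ki-RAS signal; circles are replicate A and triangles replicate B, the band spans the lowest detected signals of the arrays (83.5 to 88.8) and the dotted line is the minimum of 120. The Ki-RAS points fall from 2071 to just above 100, while the Ha-RAS and control points stay between 47.3 and 88.3 along the whole order.

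Among all probes detected on both Ki-RAS arrays, the members lay in the lower and middle range. Their median percentile by normalized log2 intensity was 40.7, with quartiles at 28.5 and 55.4. The brightest member stood at percentile 94.6.

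The brightest member was GI_40316923-I, a probe for 1 isoform. Its signal was 2071 and 1823.6 on the Ki-RAS arrays, 66.3 and 71.3 on the Ha-RAS arrays, and 79.1 and 60.1 on the control arrays. Both Ki-RAS arrays stood far above the others, and the Ha-RAS and control values overlapped. Its normalized log2 intensity in Ki-RAS cells was 10.98 ± 0.14 (SD, n = 2). Since no other array detected it, the fold is a bound, taken against the lowest detected value of each array: at least 55.2-fold over control and at least 62.8-fold over Ha-RAS. The bound over Ha-RAS exceeded that over control for each member only because the lowest detected log2 value was lower on the Ha-RAS arrays (4.996 and 5.020) than on the control arrays (5.12 and 5.27).

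GI_18379361-A, which targets a stretch common to the isoforms, gave 1522.4 and 1369.3 in Ki-RAS cells. It gave 69.6 and 70.2 in Ha-RAS cells and 68.2 and 66.7 in control cells. The 4 values outside Ki-RAS cells differed by less than 4 units, and the bounds were at least 40.5-fold over control and at least 46.1-fold over Ha-RAS. GI_33356159-S followed with 973.6 and 856.7 in Ki-RAS cells, against 73.3 and 56.4 in Ha-RAS and 66 and 63 in control cells. It was at least 25.7-fold over control. Without background correction the fitted folds over control were 28.2 for GI_40316923-I, 21.5 for GI_18379361-A and 14.5 for GI_33356159-S, so the size of these folds depends on that step.

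GI_18641359-A and GI_30089955-S were nearly level with each other. GI_18641359-A gave 791.6 and 791.8 in Ki-RAS cells, 83.4 and 79.3 in Ha-RAS cells and 71.7 and 63.3 in control cells. Its Ki-RAS arrays were nearly equal. Both Ha-RAS arrays lay above both control arrays, all without detection, and this difference had an adjusted p of 0.268 (limma). GI_30089955-S gave 854.1 and 737.3 in Ki-RAS cells, 71.9 and 69.6 in Ha-RAS cells and 67.3 and 67.9 in control cells. On the log2 scale they stood at 9.67 ± 0.011 and 9.66 ± 0.14 (SD, n = 2), a difference smaller than the spread of the second. Their bounds over control were at least 22.2-fold each.

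GI_21314699-S and GI_31343533-S shared a pattern outside Ki-RAS cells. GI_21314699-S gave 645.5 and 619.4 in Ki-RAS cells, 86.1 and 83.9 in Ha-RAS cells and 59 and 58.1 in control cells. GI_31343533-S gave 582.9 and 537.9, 86.3 and 83.8, and 53.4 and 61.9 in the same order of lines. In both, the Ha-RAS arrays came close to the lowest detected signal while the control arrays lay well under it. Their detection score reached 0.987 on a Ha-RAS array, just under the threshold of the rule.

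Of the other 13 of the 20 brightest members by log2 intensity, GI_44680115-A was the highest, at 585.3 and 657 in Ki-RAS cells. GI_4557700-S gave 530.3 and 480.4, and GI_44921604-S gave 573.1 and 435.7. The single-isoform probe GI_6912685-I gave 488.4 and 403.5. Its Ha-RAS replicate A, at 87.5, and its control replicate B, at 82, were both just short of detection with a score of 0.987. These readings rested on 15 and 9 beads, where the median probe of each of these arrays had 42. The members GI_38327640-S, GI_16507951-S, GI_21264372-S, GI_4758177-S, GI_7657105-S, GI_36951161-S, GI_38049010-A, GI_25777674-A and GI_13375849-S had mean Ki-RAS signals of 434.75 down to 351.4. In this stretch the order is not firm. GI_16507951-S and GI_21264372-S differed by 0.02 in mean log2 intensity, with SDs of 0.21 and 0.33. GI_13375849-S had the darkest surroundings of these 20, with a control replicate B signal of 48.5 and a highest detection score outside Ki-RAS cells of 0.461.

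**Figure D2:**
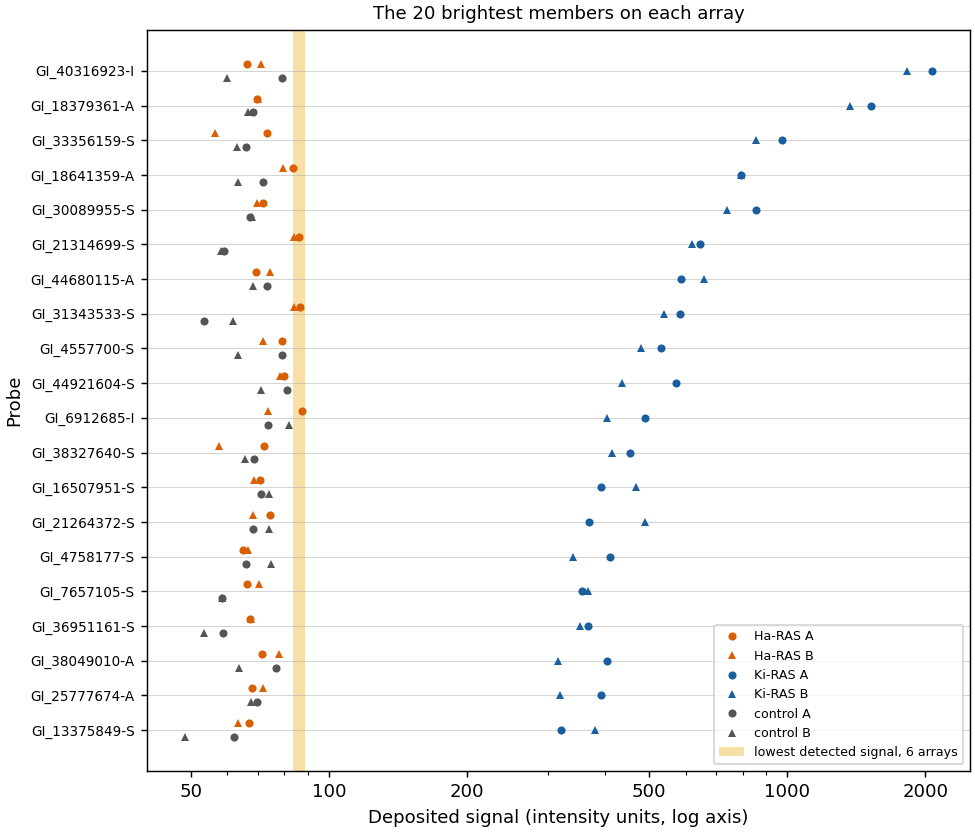
Deposited signal (horizontal log axis, intensity units) of the 20 members with the highest normalized log2 intensity in Ki-RAS cells, 1 row per probe, with circles for replicate A and triangles for replicate B of each line. All Ki-RAS points lie at or above 316.4 units and all Ha-RAS and control points below 88.8. GI_21314699-S and GI_31343533-S show Ha-RAS points in the band of lowest detected signals, and GI_6912685-I shows its Ha-RAS replicate A there.

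Both contrasts with Ki-RAS cells were used by the rule, so the test results for them are given as background only. In limma's fit over 10848 probes, 27.9% were called higher in Ki-RAS than in control cells at an adjusted p below 0.05, and 28.1% higher than in Ha-RAS cells. All 123 members were tested, each having passed the filter through the Ki-RAS arrays, and 123 were called in each contrast. The bounds over control ran from 2.07-fold to 55.2-fold with a median of at least 3.86-fold. They reached 4-fold for 59 members, 8-fold for 24 and 16-fold for 7. Over Ha-RAS the median bound was at least 4.39-fold, and 67, 27 and 8 members reached the same marks. The fitted log2 differences had medians of 2.59 against control and 2.61 against Ha-RAS, beside 0.01 and -0.06 over all probes tested. Without background correction these medians were 1.46 and 1.50. Both contrasts share the Ki-RAS arrays.

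At the edge of the rule the probes looked alike on both sides. The last members inside were GI_31745175-S with a mean Ki-RAS signal of 120.75, GI_45387924-S with 120.7 and GI_34335229-A with 120.55. Just outside were GI_31560863-S with 119.85, GI_22209002-S with 119.7 and GI_33589836-S with 118.65. GI_34335229-A gave 118 and 123.1 in Ki-RAS cells, 66.2 and 73.6 in Ha-RAS and 57 and 54.1 in control cells. GI_22209002-S, outside, gave 119.1 and 120.3, 57.5 and 62.3, and 57.7 and 60.7. The minimum thus cut through a continuous series of dim probes.

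Absence outside Ki-RAS cells was also a matter of degree. A total of 78 members scored below 0.95 on all 4 Ha-RAS and control arrays. The other 45 scored between 0.95 and 0.99 on at least 1 of them, 25 on a Ha-RAS array, 31 on a control array and 11 on both kinds. On both Ha-RAS arrays 7 members did so, and on both control arrays 3. At the other end, 5 members scored below 0.5 on each of those 4 arrays. In Ki-RAS cells 116 members had the top score of 1 on both arrays, and the lowest score was 0.999.

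The Ki-RAS replicates lay close together. The absolute log2 difference between replicates A and B had a median of 0.19 over the members and a highest value of 0.85, and 0 members differed by 2-fold or more. The other 6371 probes detected on both Ki-RAS arrays within the same range of signal had a median of 0.16, and 5 of them differed by 2-fold. These other probes were brighter, with a median signal of 278.9. Replicate A was the higher for 56 members (45.5%) and for 49.8% of the other probes. Detection on both arrays was part of the rule.

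The members with the largest replicate difference were GI_13376845-S and GI_31745175-S. GI_13376845-S gave 101.7 on replicate A and 144.2 on replicate B, a 1.80-fold difference after normalization. Its signal on replicate B rested on 6 beads, the fewest of any member on a Ki-RAS array, against a median of 44 beads for the members on each. GI_31745175-S gave 138.3 and 103.2, a 1.74-fold difference in the opposite sense. By mean Ki-RAS signal they ranked 116 and 121 among the members. The part of bead number in these differences was not tested. The spread between beads was 5.09% and 5.18% of the signal for the median member on replicates A and B, and 4.66% and 4.64% for the brighter comparison probes.

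The suffix classes were not used by the rule. Of the members, 105 were S probes (85.4%), 13 were A probes (10.6%) and 5 were I probes (4.07%). Over the whole array the shares were 79.1%, 8.96% and 12.0%. The members' shares lay nearer to those of all probes detected on both Ki-RAS arrays, which were 83.0%, 11.7% and 5.27%. The A members had a median Ki-RAS signal of 247.45, the S members 172.85 and the I members 154.65, and of the 10 members at 500 or more, 6 were S, 3 were A and 1 was I. Signals of different probes are not levels of their transcripts on a common scale. These shares were not tested.

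For 4 members the array held a further probe of the same sequence record, in each case an I probe beside an A member. GI_18379361-I gave 68.7 and 70.1 in Ki-RAS cells, at background, although the A probe of this record was the second brightest member. GI_25777674-I gave 76.7 and 84.5, where GI_25777674-A gave 392.5 and 318.9. GI_38201616-I gave 67.4 and 74.3, where GI_38201616-A gave 136.3 and 137.9. In these 3 records no array detected the single-isoform probe.

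In the fourth record, GI_27894340-I was detected on 1 Ki-RAS array, at 90.9, and gave 70.1 on the other. GI_27894340-A gave 240 and 285.9. So the isoform-specific probe of the same record was detected on both Ki-RAS arrays in 0 of 4 cases. On the whole array 732 records had both kinds of probe. The A probe was detected on both Ki-RAS arrays for 265 of them, and the I probe as well for 63 (23.8%).

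Probes with neighbouring record numbers were also read, since records of isoforms are often entered together. The files do not state which neighbours belong to 1 gene. Within 10 numbers of an A or I member, 17 of the 18 such members had further A or I probes, 67 probes that were not members. Of these 46 were detected on no array, 10 on all 6, 4 in Ki-RAS cells only and 7 in another pattern. The 4 were 5.97% of the neighbours. Of the 5096 A and I probes of the array 1.08% had this pattern, and 55.5% were detected on no array. These 5096 include the members, which the neighbours leave out, so the shares are over unlike sets. The probes described next were chosen after their values were seen.

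The 4 neighbours detected in Ki-RAS cells only missed the signal minimum of the rule. GI_40316922-I, the direct neighbour of the brightest member, gave 128.3 and 99.2 in Ki-RAS cells, 73.1 and 59.4 in Ha-RAS and 58.4 and 68 in control cells. Both Ki-RAS values lay above the other 4, an order that the choice of these neighbours by detection score favoured. GI_38049008-I gave 90.9 and 104.3, beside GI_38049010-A with 405.1 and 316.4. GI_18379355-I gave 86.9 and 100.6, only a little above its Ha-RAS values of 84.5 and 80.3. The last, GI_40806189-I, gave 90.9 and 86.9 beside the member GI_40806186-I with 126.4 and 133.1. Its control values were 80.2 and 68, so it stood close to the arrays that did not detect it.

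Counting all suffixes, 3 pairs of members lay within 10 numbers of each other. GI_44680115-A gave 585.3 and 657 in Ki-RAS cells, and GI_44680118-I gave 121.2 and 123.1. The next I probe, GI_44680120-I, went another way: it gave 123.5 and 133.9 in Ha-RAS cells, 66.4 and 75 in Ki-RAS and 69.4 and 81.7 in control cells. The first 2 of these neighbouring probes were thus detected in Ki-RAS cells only, and the third in Ha-RAS cells only.

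The second pair was GI_27894340-A with GI_27894338-I, which gave 134 and 175.3 in Ki-RAS cells, 67.4 and 54.7 in Ha-RAS and 63.1 and 55.2 in control cells. Their neighbours GI_27894333-A and GI_27894333-I were brightest in control cells, at 352.3 and 473.4 and at 205 and 221.7. In Ki-RAS cells these gave 101.4 and 109.1, and 62.5 and 68.3. Both control arrays lay above both Ki-RAS arrays for each of them. The third pair, GI_17017973-S and GI_17017978-S, gave 230.8 and 238.8, and 118.7 and 126.1, in Ki-RAS cells.

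**Figure D3:**
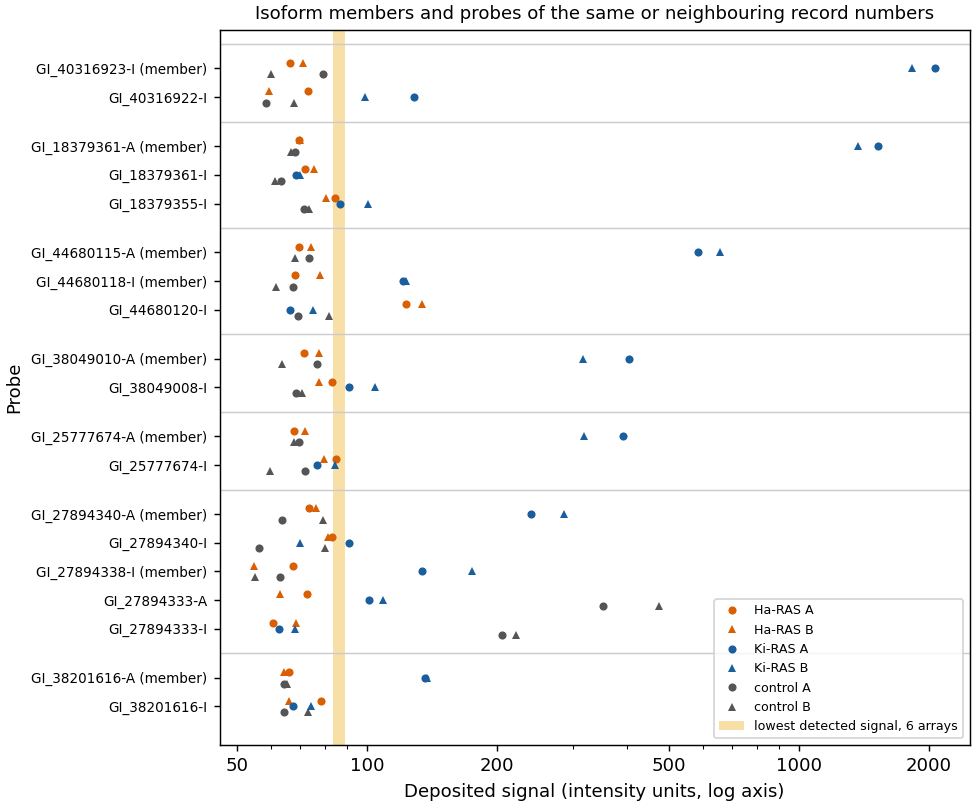
Deposited signal (horizontal log axis, intensity units) of selected A and I members and of probes with the same or neighbouring record numbers, 1 row per probe, with circles for replicate A and triangles for replicate B. Members show only Ki-RAS points to the right of the band of lowest detected signals (83.5 to 88.8), while GI_44680120-I shows only Ha-RAS points there and GI_27894333-I only control points.

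The difference between Ha-RAS and control cells did not choose the members, although the rule capped both sides at the detection threshold. Over all probes tested, 54.0% were called between these lines, 28.6% higher and 25.4% lower in Ha-RAS cells. Of the members 9 (7.32%) were called, 3 higher and 6 lower in Ha-RAS cells. Of the 317 probes tested that no Ha-RAS or control array detected, which include the members, 7.89% were called. Among the 194 of them that were not members the share was 8.25%, near that of the members. The members' median log2 difference was -0.08 beside 0.06 over all probes tested, with a median standard error of 0.17. On the normalized log2 scale, the arrays of the 2 lines did not overlap for 17 members with Ha-RAS above (13.8%) and 34 with Ha-RAS below (27.6%). The shares over all probes tested were 41.0% and 35.9%. Deposited signals can give the opposite order. For GI_18379361-A and GI_30089955-S both Ha-RAS arrays lay above both control arrays in deposited signal. On the log2 scale both Ha-RAS arrays lay below both control arrays for these 2 members. No fold or log2 difference is given for a single member, since neither line detected these probes.

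The 2 members described above with Ha-RAS signals close to detection had the highest differences. GI_31343533-S stood at a log2 intensity of 4.95 ± 0.019 (SD, n = 2) in Ha-RAS and 4.35 ± 0.12 in control cells (adjusted p = 0.00658, limma). GI_21314699-S stood at 4.95 and 4.36 (adjusted p = 0.00575). The array backgrounds also differed, with median undetected signals of 69.3 and 71.1 on the Ha-RAS arrays and 63.5 and 64.2 on the control arrays. The third such member was GI_8923764-S, with 83.3 on both Ha-RAS arrays and 52.6 and 65.6 in control cells.

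In the other direction, GI_10864036-S gave 53.9 and 64.8 in Ha-RAS and 81.6 and 73.3 in control cells, with 132.9 and 133.5 in Ki-RAS cells. It was called lower in Ha-RAS cells (adjusted p = 0.00669, limma), with neither line above detection. GI_22748702-S gave 76.1 and 70.8 in Ha-RAS and 83.3 and 78.9 in control cells (adjusted p = 0.0133). The number of calls changed with the processing: with an offset of 50 in the background correction 0 members were called by limma, and 4 had an unadjusted p below 0.05. Cyclic loess normalization gave 18, of which 16 were lower in Ha-RAS cells. Of all probes tested, 54.4% were called with the offset of 50 and 54.3% with cyclic loess. Leaving out any 1 Ha-RAS or control array lowered both the number of members called and the share of all probes called.

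**Figure D4:**
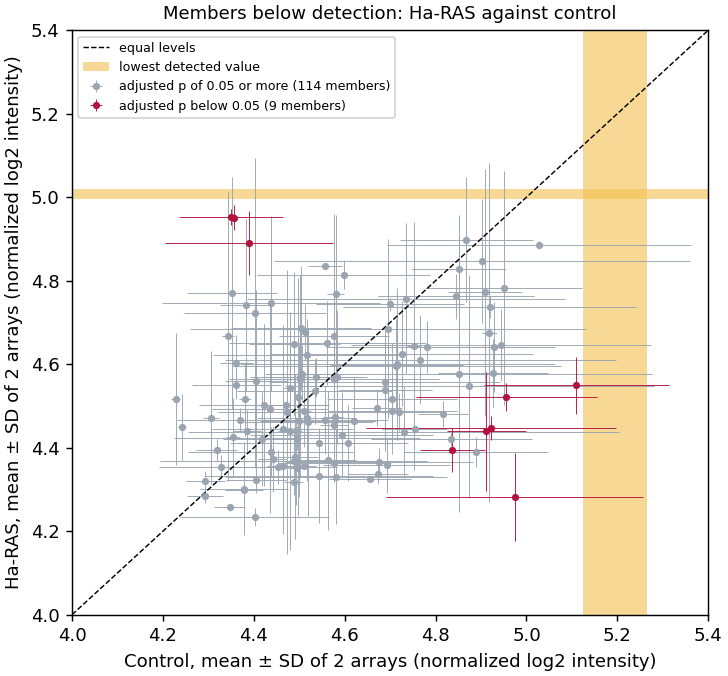
Mean normalized log2 intensity of the 123 members in control cells (horizontal axis) and in Ha-RAS cells (vertical axis), with SD bars of 2 arrays, the line of equal levels and bands at the lowest detected values. The 9 members with an adjusted p below 0.05 lie away from the line, 3 above it at Ha-RAS levels under the band and 6 below it; all 123 means lie below the lowest detected values of both lines.

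The same rule with another line in place of Ki-RAS found 183 probes for Ha-RAS and 176 for control cells, 1.91% and 1.96% of the probes that these lines detected on both arrays. In Ki-RAS cells 52 of 123 members reached a signal of 200 and 10 reached 500. The corresponding counts were 69 and 22 of 183 for Ha-RAS, and 88 and 33 of 176 for control cells. The brightest such probe had a mean of 7660.35 in Ha-RAS and 7628.25 in control cells, against 1947.3 in Ki-RAS cells. These counts were set side by side without a test.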

How the data were processed

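Biotin-labelled RNA, amplified from the total RNA of 6 samples per the labels' protocols, was read on Illumina bead arrays. The deposited signal is a mean bead intensity on a linear scale, with a bead-to-bead spread, a bead number and a detection score for each probe, per the file headers. It was not normalized by the authors, as the series' design text states. The submitters' processing notes name BeadStudio 1.5.13. The table of the whole series held equal signals (0 differing cells).

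Signals of the 24350 GI probes were background corrected with nec of limma 3.58.1 in R 4.3.3 (detection p as 1 minus the score, offset 16), transformed to log2 and quantile normalized. The 10848 probes at a detection p of 0.01 or less on both arrays of a group were fitted with lmFit and eBayes over all 6 arrays (3 residual and 7.1 prior degrees of freedom), with two-sided tests and Benjamini-Hochberg adjustment within each comparison. A probe was called at an adjusted p below 0.05.

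A bound compares the Ki-RAS mean with the mean, per array of the other line, of the higher of the lowest detected value and the probe's own value. Exact permutation tests of 2 against 2 arrays cannot reach the threshold and were not used. The precision is limited by the number of arrays. The fit was tested on simulated data with changes placed only in probes detected on all 6 arrays. That setting differs from the members, which no Ha-RAS or control array detected.

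Named were the 20 brightest members, the 3 on each side of the signal minimum, the 2 with the largest replicate difference and those with a further probe of their record. Probes named by neighbouring number or by the Ha-RAS and control test were added after their values were seen. The members and lists were chosen with earlier results of these data known.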

Additional observations from a re-analysis of the deposited data

How the results depend on the processing

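All 123 members were called higher in Ki-RAS cells than in control and than in Ha-RAS cells under each alternative that kept both arrays of the groups compared. The rule fixes this count. The share of all probes called in either direction ran from 23.3% to 56.5% against control and from 25.2% to 60.9% against Ha-RAS. The median log2 difference against control was 1.46 without background correction, 1.57 with an offset of 50, 2.43 with a common median and 2.40 without normalization between arrays. Against Ha-RAS the same settings gave 1.50, 1.60, 2.45 and 2.40. With 1 array left out the medians ran from 2.52 to 2.62 against control and from 2.57 to 2.68 against Ha-RAS.

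The number of members was 78 with a detection threshold of 0.95, 78 when the other lines had to stay below 0.95, 317 with no signal minimum and 52 with a minimum of 200. It ran from 124 to 136 with 1 array left out.

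Between Ha-RAS and control, 9 members were called. The count was 0 with an offset of 50, 18 with cyclic loess, 4 without normalization between arrays and 0 with an added 2-fold requirement, where 15 had an unadjusted p below 0.05 in limma. With 1 array left out it ran from 1 to 10. With the replicate letter as a block (replicate block) it was 6. Of all probes tested, 54.4% were called with the offset of 50, 54.3% with cyclic loess and 50.5% without normalization between arrays. The share was 23.9% with the 2-fold requirement and 52.4% with the block. Deviations of arrays with the same letter were weakly correlated (r = -0.17, -0.18 and 0.10 across probes for the 3 pairs of lines). With 2 arrays per line this cannot settle whether the letters pair the samples. The block changed no call of the members in the other contrasts, where the rule fixes the calls. Lone arrays were assumed to vary like the other groups. Signal over background limits the differences among undetected probes.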
